A study of Bos taurus with 16 samples.

Results

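The deposited table of liver expression values holds 16 arrays, 1 per steer, and its sample columns were compared as the first 8 against the last 8 in the table's order. All 16 of the 16 arrays were used, 8 on each side. No label names this division. The columns run by animal number, so that the first 8 arrays are those of the 8 lowest numbers. The division was first noticed in the array medians of these same values, and the counts and p-values below describe it and are not independent evidence that it exists. The arrays do divide there: on the first principal component, which held 31.4% of the variance, the first 8 lay between -45.9 and -37.1 and the last 8 between 20.3 and 80.5.

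The study chose crossbred beef steers (male), under a year old at the start of a feed trial on a high-concentrate finishing diet with wet distillers grain, for being far from the mean of gain and intake. They form 4 groups of 4 on the same diet. The first 8 arrays held 1 steer labelled high gain-high intake, 2 of high gain-low intake, 2 of low gain-high intake and 3 of low gain-low intake, and the last 8 held 3, 2, 2 and 1 of these. In the study's methods each harvest day took a steer of every group, so that neither side can be made up of whole harvest days. The sources used here do not say which arrays were hybridized, scanned or normalized together. RNA integrity varied between samples in the study's methods, which do not give it by animal, so it could not be compared between the sides.

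The liver is mostly hepatocytes, which make the plasma proteins of the blood (albumin, fibrinogen, complement and clotting factors), and in ruminants make most of the glucose from propionate. Kupffer cells are its resident macrophages, and sinusoidal endothelium, stellate cells, bile duct cells and blood cells make up the rest. Robust Multichip Analysis (RMA) reduces the probes of a transcript cluster, roughly 1 gene, to 1 log2 value per array, and a set of arrays summarised together shares its probe effects. All values below are such log2 values, and a difference is the last 8 minus the first 8 with the 4 groups in the model. The ± after a difference is its standard error in that model, not the spread between steers. In a whole-tissue sample fewer cells of a type and less RNA per cell cannot be told apart.

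The 2 sides differed in the shape of the signal range more than in its middle. Array medians were 7.41 to 7.47 in the first 8 arrays (median 7.44) and 7.16 to 7.28 in the last 8 (median 7.23). The 99th percentile lay at 17.6 to 17.7 in the first 8 and at 16.4 to 17.4 in the last 8. The 75th and 95th percentiles and the mean did not overlap either, and all were lower in the last 8 arrays. At the very top the order turned around. The highest value on an array was 20.8 to 21.5 in the first 8 and 22.2 to 22.8 in the last 8, while the lowest value was 3.18 to 3.44 against 3.51 to 3.72. The 5th and 25th percentiles overlapped. An array of the first 8 held 488 to 525 transcript clusters above 16, and an array of the last 8 held 317 to 462.

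The top of the first 8 arrays was flat. On each of them 22 to 46 transcript clusters (median 36.5) carried exactly the same value, the highest on that array, whereas 1 to 8 (median 3) did so on an array of the last 8. The 40th highest value lay at most 0.085 below the highest in the first 8 arrays and 1.21 to 2.03 below it in the last 8. In all, 67 transcript clusters stood at the highest value on at least 1 of the first 8 arrays, 21 of them on all 8. On the last 8 arrays 10 stood there at least once and 0 on all. A value at such a shared maximum is a limit and not a measured level. For a named gene that stood there on any of the first 8 arrays, no fold change is therefore given. No difference is given for such a gene either, except for CFB and APOH where the dependence on processing is described. Counts and medians over many genes include all genes at the limit.

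**Figure D1:**
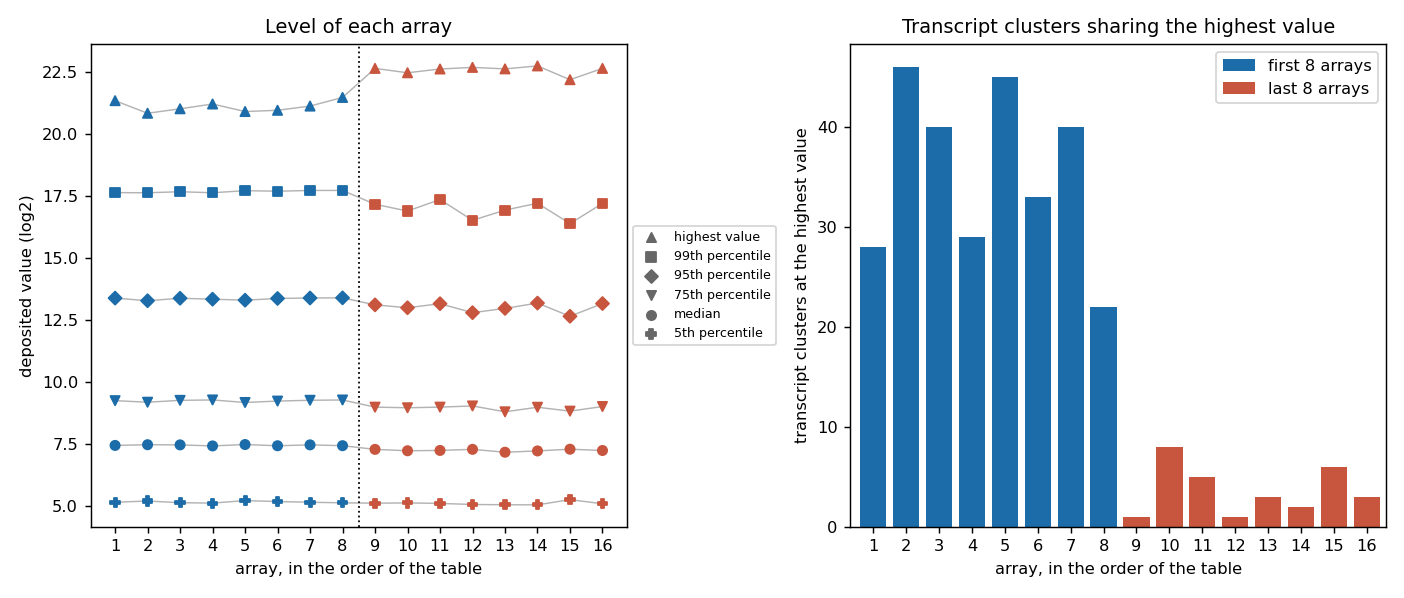
Left, log2 values of each of the 16 arrays in table order, from the 5th percentile (bottom) to the highest value (top), with the dotted line between the first 8 (blue) and the last 8 (red). Right, the number of transcript clusters at exactly the highest value of the array, 22 to 46 in the first 8 and 1 to 8 in the last 8.

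Equal values between arrays divided in the same place, but the other way around. Between any pair of the last 8 arrays 158 to 300 transcript clusters had exactly the same deposited value (28 pairs, median 239.5). Between pairs of the first 8 there were 0 to 6 (28 pairs, median 2), and between an array of the first 8 and an array of the last 8 there were 0 to 4 (64 pairs, median 0). Of the 26773 transcript clusters, 3686 (13.8%) had the same value on at least a pair of the last 8 arrays and 55 (0.205%) on a pair of the first 8. In 1 transcript cluster all of the last 8 arrays had 1 value. These counts use neither the array medians nor the phenotype groups. The low gain-high intake steer 20133452, which stands apart below, had the fewest equal values with each of the other 7 arrays of the last 8 but shared at least 158 with each.

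Among the last 8 arrays 1 stood apart. The low gain-high intake steer 20133452 had the score of 80.5 on the first component, correlated at 0.952 to 0.961 with the rest of the last 8, had the fewest transcript clusters above 12 (1768) and the lowest maximum of the last 8 (22.2), and received an array weight of 0.42 where the other arrays had 0.83 to 1.41. Across transcript clusters, arrays correlated at 0.971 to 0.983 within the first 8, 0.952 to 0.979 within the last 8 and 0.934 to 0.971 between them. The spread within a side was a little wider in the last 8, with a median SD over transcript clusters of 0.31 against 0.27, and of 0.29 in the last 8 without steer 20133452.

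In limma with the groups in the model, 7985 of 26773 transcript clusters (29.8%) had an adjusted p below 0.05 between the first and the last 8 arrays. Of these, 1207 were higher (4.51% of all) and 6778 lower (25.3%) in the last 8, and the median difference over all transcript clusters was -0.22. The surplus of lower ones went with scaling: with each array's median subtracted there were 2792 higher and 2217 lower, and after quantile normalization, which gives all arrays 1 distribution, 2392 higher (8.93%) and 2134 lower (7.97%). The 16 deposited values did not overlap in 295 transcript clusters that were higher (1.1%) and in 1460 that were lower (5.45%). Across the deposited, median-subtracted and quantile-normalized values, 1157 transcript clusters were called higher in all 3 and 1817 lower in all 3. None was called in opposite directions by the deposited and the quantile-normalized values, while 4654 of those called lower as deposited were not called after quantile normalization and 1245 were called only after it. Without the low gain-low intake steer 20133403, the only one of that group in the last 8, the count fell to 5300 (896 higher, 4404 lower). Without steer 20133452 it was 7145.

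The difference was of similar size in each phenotype group. Its median over transcript clusters was -0.21 in high gain-high intake (1 array against 3), -0.19 in high gain-low intake (2 against 2), -0.19 in low gain-high intake (2 against 2) and -0.28 in low gain-low intake (3 against 1). These 4 differences share no animals, and across the 26773 transcript clusters they correlated at Pearson's r of 0.439 to 0.495 as deposited and 0.418 to 0.491 after quantile normalization, as a description over genes, which are not replicates. The interaction of side and group had an adjusted p below 0.05 in limma for 0 transcript clusters (lowest adjusted p = 0.138), with 1466 at an unadjusted p below 0.05. The ordinary linear model called 1. Leaving out the low gain-high intake steer 20133327 gave 4 calls, and leaving out steer 20133452 gave 1.

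How far a transcript cluster moved depended on its signal level. Those with a mean below 5 had a median difference of 0.08, those between 5 and 6 of -0.08, and those between 10 and 11 of -0.35. From 16 to 20 the medians of the 1-unit steps were -0.65 to -0.62. Of 345 transcript clusters in that range 323 were lower in the last 8 arrays, 159 were called lower and 3 higher. Between 20 and 21 the median was -0.47, and above 21 it was 1.08, with 37 of 39 above 0 and 29 called higher. Of these 39, 37 stood at the shared highest value on at least 1 of the first 8 arrays, so that this step sets the last 8 arrays mostly against limits. After quantile normalization the medians of all steps lay between -0.03 and 0.19. Then 33 transcript clusters from 16 to 20 were called in each direction, and above 21 there were 4 called higher and 2 lower.

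**Figure D2:**
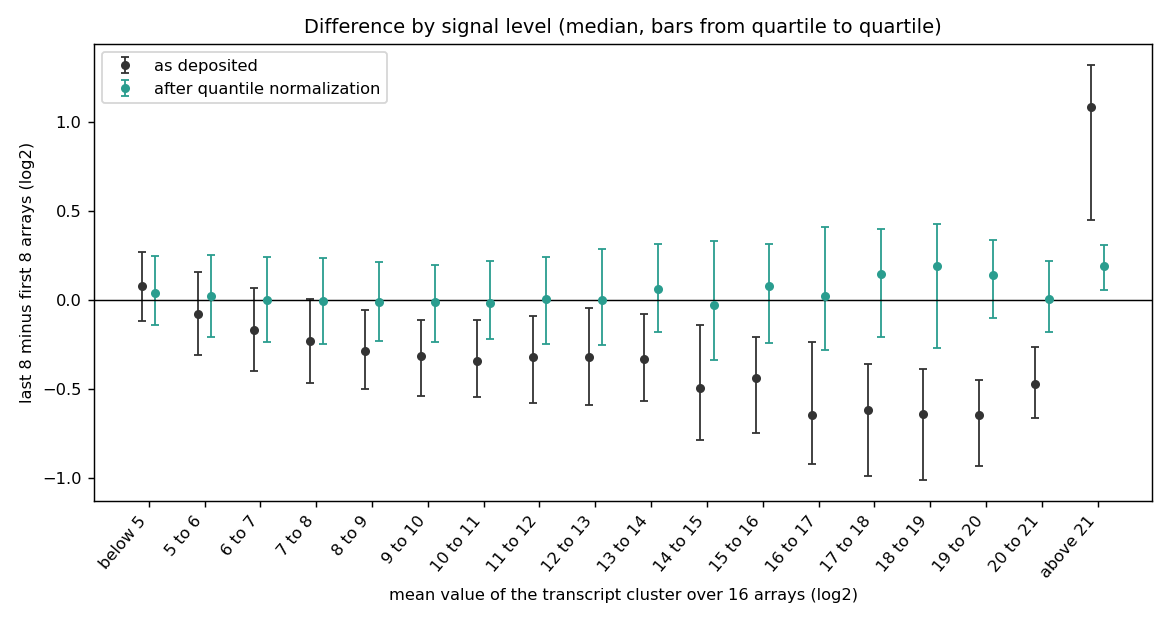
Difference between the last and the first 8 arrays (log2) by mean signal level, as deposited (black) and after quantile normalization (green), with points at the median of each step and bars from the lower to the upper quartile. As deposited the median fell from 0.08 below a level of 5 to -0.64 at 16 to 17 and was 1.08 above 21, where 37 of 39 transcript clusters were at a limit in the first 8, whereas after quantile normalization it stayed between -0.03 and 0.19.

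Plasma proteins made by hepatocytes showed this in named genes. The lists of acute phase proteins, of complement and coagulation factors and of apolipoproteins and lipoprotein assembly, together with albumin, held 75 genes. Of these 75 genes 10 had a mean above 21. All 10 stood at the shared highest value on at least 1 of the first 8 arrays. Against these limits 9 had a difference above 0 and 7 were called higher. Of the 29 genes between 16 and 21, 0 had a difference above 0 and 21 were called lower (median -0.76), and of the 36 at 16 or less 12 were called lower (median -0.54). After quantile normalization 1 gene above 21 was called higher and 1 lower, and from 16 to 21 there were 1 and 3.

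ALB, which encodes serum albumin, was at 20.8 to 21.5 (median 21.1) in the first 8 arrays, the highest value of the array on all 8, and at 22.2 to 22.7 (median 22.6) in the last 8, where it was the highest value on 5. Its values therefore follow the upper end of each array. Complement component C3 stood at the highest value on 6 of the first 8 arrays and on 0 of the last 8, complement factor B (CFB) on 5 and 0, and the fibrinogen beta chain gene FGB on 3 and 0. FGA, the fibrinogen alpha chain gene, did so on 1 of the first 8 arrays and lay just below the highest value on the others. It was 20.834 to 21.466 in the first 8, where the array maxima were 20.842 to 21.481. In the last 8 it was 21.8 to 22.4 with no overlap. It was called higher as deposited and after quantile normalization (adjusted p = 2.77e-05 and 0.013), against values at or near a limit. CFB ran at 20.8 to 21.5 against 20.5 to 21.4, overlapping.

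Secreted proteins just below that level fell in the deposited values. C1R, a serine protease of the first component of complement, ran from 19.9 to 20.8 in the first 8 arrays (median 20.3) and from 17 to 19.7 in the last 8 (median 18.9). The sides did not overlap, with steer 20133452 the lowest. Its difference was -1.68 ± 0.34 (adjusted p = 0.00321) and -0.92 after quantile normalization (adjusted p = 0.021). SERPIND1, which encodes the thrombin inhibitor heparin cofactor II, lay at 18.0 to 18.2 against 15.6 to 17.2, a difference of -1.42 ± 0.21 that was -0.65 after quantile normalization. Over the 35 complement and coagulation genes 23 were called lower as deposited (65.7%, against 25.3% of all transcript clusters) and 1 higher, and 5 lower (14.3%, against 7.97%) and 0 higher after quantile normalization, with medians of -0.75 and -0.07. The median level of this list was 18.0, and from 16 to 20 as many as 159 of 345 transcript clusters were called lower. Set against transcript clusters in the same step of level, the median difference of the list was -0.17. The list of apolipoproteins and lipoprotein assembly gave 6 lower of 17 as deposited (35.3%) and 1 higher. The 1 called higher in each list stood at the shared highest value in the first 8. PLTP, the phospholipid transfer protein gene, was at 7.78 to 8.86 against 6.80 to 7.72 with no overlap (-1.09 ± 0.16, and -0.86 after quantile normalization), and the apolipoprotein E gene APOE overlapped (-1.17 ± 0.23, and -0.64, no longer called without steer 20133452).

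**Figure D3:**
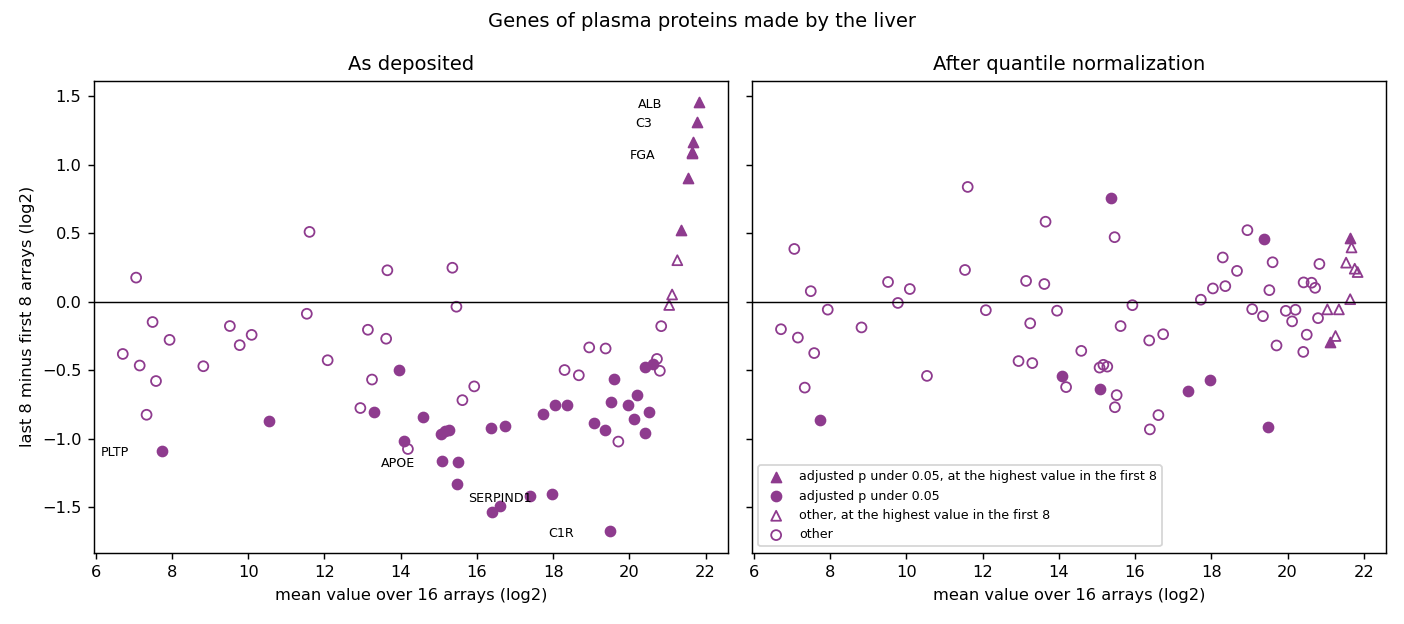
Difference between the last and the first 8 arrays (log2) against the mean level of 75 genes of plasma proteins and lipoprotein assembly, as deposited (left) and after quantile normalization (right), with filled symbols for an adjusted p under 0.05 and triangles for genes at the shared highest value on at least 1 of the first 8 arrays. As deposited 9 of the 10 genes above 21, all drawn as triangles and set against limits, lie above 0 and all 29 genes from 16 to 21 lie below 0.

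Genes of nitrogen, fatty acid and glucose metabolism had median differences close to those of transcript clusters of their level. As deposited 0 genes of urea and amino acid breakdown were called higher and 9 of 31 lower (29%, median -0.50), 0 and 7 of 22 of fatty acid oxidation (31.8%, median -0.40) and 0 and 5 of 22 of gluconeogenesis and propionate use (22.7%, median -0.38), against 25.3% of all transcript clusters called lower and a median of -0.23 over all 18444 gene symbols. Set against transcript clusters in the same step of level, these medians were -0.05, -0.04 and 0.06. Other liver lists lay further off on that measure, at 0.31 for cholesterol synthesis, 0.19 for bile acid synthesis and transport, -0.22 for hepatocyte transcription factors and -0.28 for apolipoproteins. After quantile normalization the medians of the first 3 were -0.02, 0.01 and 0.05. CPS1, the first enzyme of the urea cycle, lay at 20.3 to 20.9 and 19.2 to 20.5, overlapping, and its difference of -0.39 ± 0.19 (adjusted p = 0.134) turned to 0.22 after quantile normalization. SLC10A1, the bile acid importer, did not overlap at 19.6 to 20.1 against 18.8 to 19.5 (-0.63 ± 0.13), yet turned to 0.13 after quantile normalization. The 18 genes of the periportal program had 0 called in either direction as deposited in limma and in the ordinary linear model (median -0.39), with 0 higher and 4 lower at an unadjusted p below 0.05. The 22 inducible heat shock genes had 0 called lower by limma or the ordinary model (median -0.38) and 1 at an unadjusted p below 0.05. HSPD1, a mitochondrial chaperonin gene, was the 1 heat shock gene called higher (6.48 to 7.52 against 7.45 to 8.46, 1.20 ± 0.16, adjusted p = 0.000237).

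A few metabolic genes kept a clear difference under each scaling. ECHS1, an enzyme of mitochondrial fatty acid oxidation, was at 17.7 to 18.0 in the first 8 arrays and 15.1 to 16.9 in the last 8, and its difference was -1.66 ± 0.25 (adjusted p = 0.000559) and -0.98 after quantile normalization. HAAO, an enzyme of tryptophan breakdown, ran at 15.1 to 16.2 against 13.5 to 15.3 (-1.45 ± 0.24, and -0.96). PFKL, the liver form of the glycolytic enzyme phosphofructokinase, lay at 8.55 to 9.25 against 7.52 to 8.48 with no overlap (-0.85 ± 0.16, and -0.59). Of 20 glycolysis genes 8 were called lower as deposited (40%) and 3 after quantile normalization (15%), against 25.3% and 7.97% of all transcript clusters, with 0 higher in either. GAPDH, another of them and a common reference gene, had no overlap at 19.7 to 20.5 against 17.8 to 19.5 (-1.11 ± 0.28), and was not called after quantile normalization (-0.34, adjusted p = 0.145). The reference genes ACTB (-0.72 ± 0.33, adjusted p = 0.112) and RPLP0 (-0.39 ± 0.21, adjusted p = 0.177) overlapped, and turned to 0.06 and 0.08 after quantile normalization. Cholesterol synthesis had a median of 0.00 as deposited and 0.34 after quantile normalization over 19 genes, with 1 called lower in the former (the C5-desaturase gene SC5D, -0.50, and 0.34 after quantile normalization) and 1 higher in the latter (MSMO1, the C4-methylsterol oxidase gene, 0.59 as deposited and 1.35). The sides overlapped in both genes, and SC5D was called in only 4 of the 16 fits that left out 1 array.

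The highest rise of all named genes was in glutathione conjugation. GSTA1, a glutathione S-transferase abundant in hepatocytes, ran from 13.9 to 14.9 in the first 8 arrays (median 14.6) and from 17 to 18.5 in the last 8 (median 17.7). No array came near the other side. The difference was 3.23 ± 0.23, a 9.41-fold change on the array's scale (adjusted p = 5.39e-07), was 3.87 after quantile normalization, and was 2.53 to 4.06 within the 4 phenotype groups. The alpha glutathione S-transferases are a family of closely similar genes, and whether its probes also bind a relative was not tested. GSTO1, of another class of the family, went the other way with overlap, at 7.68 to 11 against 6.49 to 8.25 (-1.88 ± 0.45, and -1.66). The other 25 measured genes of cytochrome P450 and conjugation gave 0 higher and 3 lower as deposited.

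Besides GSTA1 and FGA, the genes with the largest rises that held under each scaling without overlap were of low to moderate level. The rise of FGA was set against values at or just below a limit in the first 8 arrays. The rule was met by 166 gene symbols higher and 677 lower in the last 8 arrays. HYI, a hydroxypyruvate isomerase gene, ran from 8.99 to 9.27 (median 9.12) in the first 8 and from 10.4 to 11.4 (median 11) in the last 8, a difference of 1.80 ± 0.13 (adjusted p = 6.51e-07). TNK2, a non-receptor tyrosine kinase gene, was at 6.50 to 6.91 and 7.62 to 8.64 (1.45 ± 0.15), and GNGT2, a G protein subunit gene known from cone photoreceptors, at 6.21 to 6.95 and 7.50 to 8.51 (1.25 ± 0.13). Next came SYNGR3, a synaptic vesicle gene (1.26), DUOX1, a hydrogen peroxide-forming oxidase gene of epithelia (1.23), GREP1 (1.18), TRIM66 (1.18), the sterol transporter gene ABCG4 (1.10), IFFO2 (1.09) and CSMD3 (1.08). SYNGR3, DUOX1, GREP1, TRIM66, ABCG4, IFFO2 and CSMD3 had medians of 4.79 to 5.81 in the first 8 arrays, below the array medians. In ABCG4 the median and the highest value of the last 8 arrays were both 6.4829, a value repeated on several of these arrays.

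The 12 largest falls under the same rule were in genes of high and of low level. GSTO1 fell further than these, but its sides overlapped. PNRC2, a nuclear receptor coactivator gene, ran from 16.5 to 17.2 (median 16.9) in the first 8 arrays and from 14.0 to 15.4 (median 15.2) in the last 8, a difference of -1.83 ± 0.20 (adjusted p = 4.87e-05) and -1.27 after quantile normalization. BTF3, a basal transcription factor gene, was at 14.5 to 15.5 against 11.9 to 14.2 (-1.78 ± 0.31), and NUPR1, a stress-response regulator, at 17.1 to 18.5 against 14.2 to 16.8 (-1.72 ± 0.32). In PNRC2, BTF3, NUPR1, C1R and ECHS1 steer 20133452 had the lowest of the 16 values. NLGN1, a synaptic adhesion gene of low level here, fell by 1.68, and CDK5R2, a neuronal kinase activator gene, by 1.65. The elongin B gene ELOB fell by 1.63, CARHSP1 by 1.61, the interferon-induced chemokine gene CXCL11 by 1.60, the ribosomal protein gene RPL31 by 1.58 and the galectin-1 gene LGALS1 by 1.56. Each of these 7 also passed the test after quantile normalization, at -1.51 to -1.16.

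**Figure D4:**
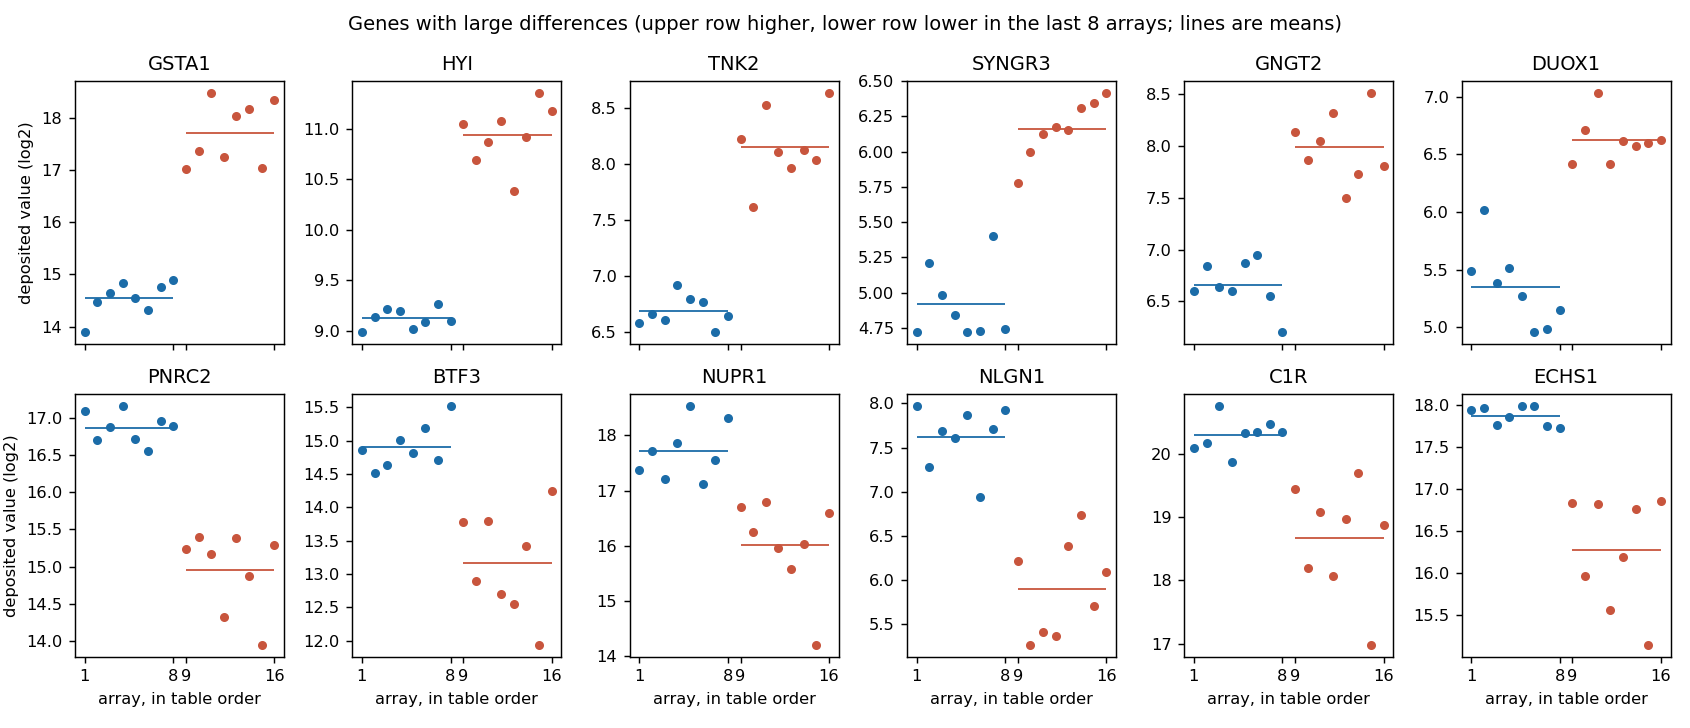
Deposited log2 values of the 6 genes with the largest rises (upper row) and the 6 with the largest falls (lower row) on each of the 16 arrays in table order, with the first 8 arrays in blue, the last 8 in red and lines at the mean of each side; the vertical scales differ between genes. In each of the 12 genes the 2 sides do not overlap, and GSTA1 lies at 13.9 to 14.9 against 17 to 18.5.

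Markers of hepatocytes were called in both directions, and few of those of Kupffer cells were called. Of 30 hepatocyte markers 7 were called higher and 9 lower as deposited (23.3% and 30%, against 4.51% and 25.3% of all transcript clusters), and all 7 higher ones stood at the shared highest value on at least 1 of the first 8 arrays. After quantile normalization 3 were higher and 2 lower, and the deposited values had list means of 19.0 to 19.4 in the first 8 arrays and 18.4 to 19.4 in the last 8. The defining markers of the tissue were present on all arrays, ALB among the highest values of each. Of 21 Kupffer cell and macrophage markers 0 were called higher and 4 lower as deposited (19%, a smaller share than the 25.3% of all transcript clusters, with a median of -0.51), and 0 in either direction after quantile normalization in limma (median -0.28), when 15 of the 21 had a difference below 0 and 1 was higher and 2 lower at an unadjusted p below 0.05. CD163, a scavenger receptor of Kupffer cells, lay at 10.2 to 11.4 and 9.56 to 12.3 (0.00 ± 0.26), and CD5L, a protein macrophages secrete, at 15.8 to 16.9 and 14.9 to 16.5 (-1.01 ± 0.24, and -0.45 after quantile normalization, adjusted p = 0.25). C1QB, a complement gene of macrophages, had the widest spread, 14.1 to 17.6 against 12 to 16.7, and did not pass the test (-1.75 ± 0.69, adjusted p = 0.0698).

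Markers of other cells gave shares of calls that varied between lists, against 4.51% higher and 25.3% lower over all transcript clusters as deposited. In the short list of 8 mesothelium markers 3 were called higher and 2 lower as deposited (37.5% and 25%). After quantile normalization 3 of these 8 were higher (37.5%, against 8.93% of all transcript clusters) and 0 lower. Of 6 nerve and Schwann cell markers 0 were called higher and 2 lower as deposited (33.3%), and 0 and 1 (16.7%) after quantile normalization. Among 19 endothelial markers 1 was called higher and 5 lower as deposited (5.26% and 26.3%), shares near the 4.51% and 25.3% of all transcript clusters, and 1 each after quantile normalization (5.26%, against 8.93% and 7.97%). TIE1, an endothelial receptor kinase, was the higher one (6.63 to 7.22 against 7.23 to 7.80, 0.56 ± 0.12), and EGFL7, a secreted endothelial protein, the lower one (6.98 to 8.04 against 6.54 to 7.27, -0.99 ± 0.15). PECAM1, the general endothelial marker, overlapped at 10.1 to 10.7 and 9.84 to 10.7, and its difference of -0.19 turned to 0.03 with median subtraction and 0.15 after quantile normalization. COL1A1, the collagen gene of fibroblasts, differed by 0.41 ± 0.20 as deposited and was called only after quantile normalization (0.72, adjusted p = 0.0259) or median subtraction, though not after quantile normalization without steer 20133452, and KRT19, a bile duct keratin, by 0.43 (adjusted p = 0.155). Of 23 T and NK cell markers 0 were called higher and 3 lower (13%) as deposited, and 0 after quantile normalization, when 1 was higher and 2 lower at an unadjusted p below 0.05. CD3E, of the T cell receptor complex, lay at 8.28 to 11.5 and 8.22 to 9.71, with the low gain-high intake steer 20133062 the highest.

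Blood cell markers did not move together. Of 16 erythroid markers 2 were called higher and 5 lower as deposited (12.5% and 31.2%, against 4.51% and 25.3% of all transcript clusters). After quantile normalization 2 were higher (12.5%, against 8.93%) and 0 lower. Of 15 B and plasma cell markers 0 were called higher and 3 lower (20%) as deposited, and 2 higher (13.3%) and 0 lower after quantile normalization. HBB, the beta globin gene, ran from 7.28 to 9.20 and from 7.51 to 10.3 (0.51 ± 0.46, adjusted p = 0.424), and the B cell receptor gene CD79A from 5.99 to 6.53 and from 6.13 to 7.45 (0.29 ± 0.15), overlapping, with a call only after median subtraction (0.50) or quantile normalization (0.47). Of 15 neutrophil markers 1 was called higher and 4 lower as deposited (6.67% and 26.7%, near the 4.51% and 25.3% of all transcript clusters), and 1 and 2 after quantile normalization. Among them S100A9, a calcium-binding protein of neutrophils, and PGLYRP1, an antibacterial protein of their granules, were lower with no overlap (6.22 to 6.97 against 5.59 to 5.87, and 7.26 to 7.90 against 6.35 to 7.01). Their differences were -0.84 ± 0.12 and -1.04 ± 0.12, and -0.69 and -0.84 after quantile normalization. S100A8, which encodes the partner of S100A9 in the protein calprotectin, was not lower but at 6.10 to 6.61 against 6.21 to 7.52 (0.30 ± 0.17, adjusted p = 0.189, called only with median subtraction), with steer 20133452 the highest. The part of cell makeup in the differences between the sides was not tested beyond these values.

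Interferon-stimulated genes were lower as a group in the counts. Of 30 such genes 13 were called lower and 0 higher as deposited (43.3% against 25.3% of all transcript clusters), with a median of -0.51, and 6 lower and 0 higher after quantile normalization (20% against 7.97%), with a median of -0.24. IFIT3 was at 6.92 to 7.63 in the first 8 arrays (median 7.30) and 6.10 to 6.87 in the last 8 (median 6.42), with no overlap and a difference of -0.85 ± 0.13 (adjusted p = 0.000671). IFIT5, of the same family of RNA-binding antiviral proteins, ran at 12.6 to 13.3 against 11.4 to 12.5 (-1.01 ± 0.18), and IFIT2 at 5.88 to 6.50 against 5.44 to 5.85 (-0.65 ± 0.10). After quantile normalization the 3 differed by -0.66, -0.68 and -0.52, and each passed the test. No set test was run, and the counts describe these 30 genes only.

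Hepatocyte transcription factors were called lower in 9 of 23 genes and higher in 0 as deposited (39.1% lower, against 25.3% of all transcript clusters, median -0.56), and lower in 3 and higher in 1 after quantile normalization (13% lower, against 7.97%, median -0.26). FOXA3, a winged-helix factor of liver genes, lay at 7.45 to 9.84 against 6.49 to 7.21 with no overlap (-1.33 ± 0.26), and NR1I3, the drug-sensing nuclear receptor CAR, at 13.8 to 14.8 against 11.6 to 13.5 (-1.12 ± 0.27). MLXIPL, the carbohydrate-responsive factor ChREBP, was counted under fatty acid and triglyceride synthesis and is not among these 23. It was at 9.14 to 10.1 against 8.18 to 9.23, overlapping (-0.92 ± 0.19). FOXA3, NR1I3 and MLXIPL still passed the test after quantile normalization, at -1.13, -0.75 and -0.64, NR1I3 no longer without steer 20133452. In the growth hormone and IGF axis 7 of 23 genes were called lower (30.4%) and 0 higher as deposited. IGF2 (-1.34 ± 0.31) and the growth hormone receptor gene GHR (-1.09 ± 0.29) were not called after quantile normalization, at -0.61 and -0.35. IGFBP4, a binding protein of the IGFs, was (-1.18 ± 0.27, and -0.78, adjusted p = 0.0323, no longer called without steer 20133452).

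Of the genes of the general cell machinery that were called, nearly all were lower as deposited, as over all transcript clusters, where 25.3% were called lower, and after quantile normalization they went both ways. Of 63 cytosolic ribosomal protein genes 34 were called lower (54%) and 0 higher as deposited (median -0.61), and 9 lower (14.3%, against 7.97% of all) and 6 higher (9.52%, against 8.93%) after quantile normalization (median -0.13). RPL5 was at 16.7 to 17.2 against 15.2 to 16.2 (-1.08 ± 0.16, and -0.45). RPS24, at 17.2 to 17.9 against 16.4 to 17, did not overlap either and differed by -0.75 ± 0.11 as deposited and by 0.00 after quantile normalization. RPL10, at 20.2 to 20.8 against 20.1 to 21.2, was called higher only after it (0.25 ± 0.15, and 0.73). Ribosomal protein genes have many processed copies in the genome, which the probes may not tell apart. Mitochondrial ribosomal proteins gave 27 lower (37.5%) and 0 higher of 72 as deposited and 10 (13.9%) and 6 (8.33%) after quantile normalization, with MRPS9 (-1.17 ± 0.14) and MRPS11 (-1.18 ± 0.14) among the lower. Of 75 nuclear-encoded respiratory chain genes 27 were lower (36%) and 1 higher, then 8 (10.7%) and 6 (8%). Of 46 proteasome genes 16 were lower (34.8%) and 0 higher, then 3 (6.52%) and 5 (10.9%). NDUFB4, a subunit of complex I, was at 7.77 to 8.48 against 6.43 to 7.45 (-1.16 ± 0.15), and PSMC1, a proteasome ATPase, at 11.5 to 12 against 10.3 to 11.3 (-0.97 ± 0.15).

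Genes of dividing cells, low in the liver, were mostly called lower as deposited, and after quantile normalization calls went both ways. By then 30 of 43 DNA replication genes and 43 of 62 mitosis genes had a difference below 0 (medians -0.12 and -0.11). Over all transcript clusters 13356 of 26773 did. Of 43 DNA replication genes 18 were called lower (41.9%, against 25.3% of all transcript clusters) and 1 higher as deposited, and 6 lower (14%, against 7.97%) and 3 higher (6.98%, against 8.93%) after quantile normalization. RFC2, a clamp loader subunit, was at 8.42 to 8.88 against 7.60 to 7.96 (-0.91 ± 0.10), and CDC45, a helicase factor, at 6.66 to 7.07 against 5.85 to 6.38 (-0.88 ± 0.11), both with no overlap. Of 62 mitosis genes 19 were called lower (30.6%) and 2 higher, then 4 (6.45%) and 3 (4.84%). The mitotic kinase gene AURKB was higher at 5.30 to 5.89 against 6 to 6.62 (0.71 ± 0.12), while DLGAP5, a spindle protein gene, was lower at 6.63 to 6.93 against 5.71 to 6.50 (-0.56 ± 0.11).

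Immediate early genes, which respond within minutes to handling of tissue, had a median of -0.05 over 27 genes as deposited, with 0 higher and 5 lower (18.5%, against 25.3% of all transcript clusters), and of 0.14 after quantile normalization, with 2 higher and 3 lower (7.41% and 11.1%, against 8.93% and 7.97%). The list means overlapped, 7.62 to 8.84 in the first 8 arrays and 7.16 to 8.33 in the last 8. KLF2, a flow-responsive factor of endothelium, was at 6.59 to 7.21 against 5.75 to 6.51 with no overlap (-0.93 ± 0.14). Hypoxia targets gave 1 higher and 4 lower of 25 (16% lower), circadian clock genes 0 and 4 of 18 (22.2%), and glucocorticoid and fasting targets 1 and 2 of 22 (9.09%), all below the share of all transcript clusters. After quantile normalization there were 1 and 1, 0 and 1, and 1 and 0.

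**Figure D5:**
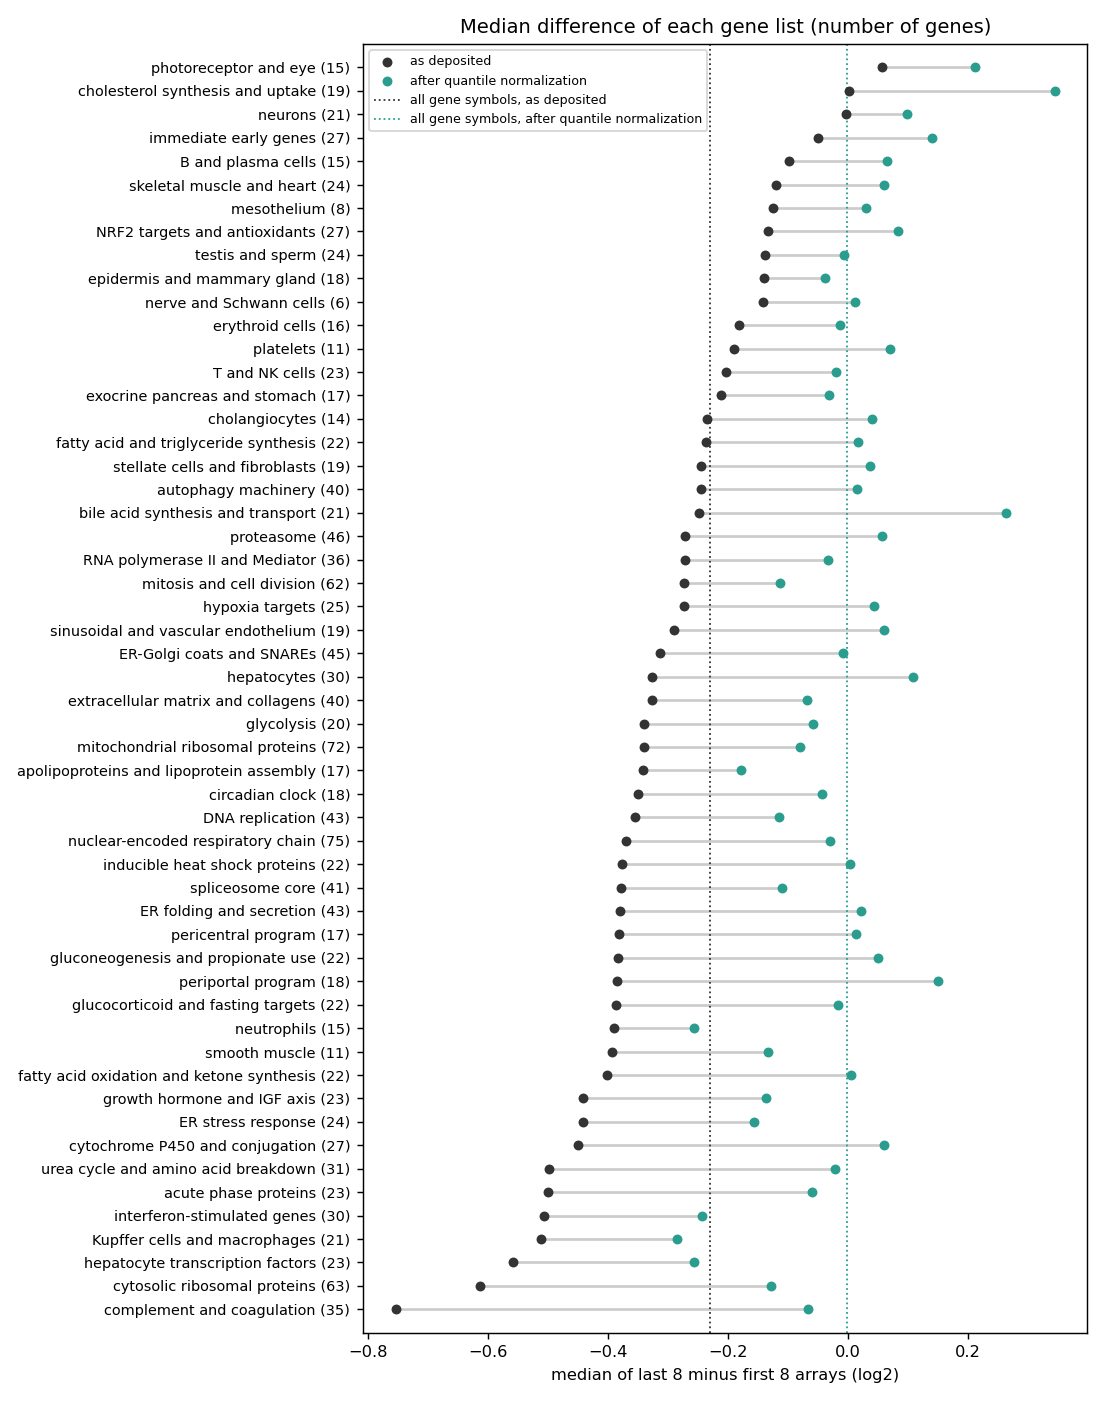
Median difference between the last and the first 8 arrays (log2) of each gene list, as deposited (black) and after quantile normalization (green), with the number of genes measured in brackets and dotted lines at the medians over all gene symbols. As deposited the list medians span -0.75 (complement and coagulation) to 0.06 (photoreceptor and eye), and after quantile normalization -0.28 (Kupffer cells and macrophages) to 0.34 (cholesterol synthesis and uptake).

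Some genes that the liver hardly uses also differed. Of 15 photoreceptor and eye genes 3 were called higher and 1 lower as deposited (20% higher, against 4.51% of all transcript clusters) and 5 higher and 0 lower after quantile normalization (33.3% higher, against 8.93%). The 2 members of highest signal were not called under either. The 2 of smallest p were GNAT1 and OPN1SW. GNAT1, the rod transducin gene, ran from 5.29 to 5.90 and from 5.83 to 6.33 (0.50 ± 0.12), and OPN1SW, the blue cone opsin gene, from 5.30 to 5.87 and from 6.03 to 6.71 (0.50 ± 0.12). Other such genes were lower with no overlap. TNNI2, a fast muscle troponin gene, was at 6.70 to 7.32 against 5.43 to 6.06 (-1.19 ± 0.11, adjusted p = 1.06e-05), GAD2, a neuronal enzyme gene, at 6.08 to 6.69 against 5.41 to 5.93 (-0.79 ± 0.12), and the sperm genes TSSK6 and LDHC differed by -0.65 ± 0.09 and -0.73 ± 0.13. Of 24 testis genes 4 were called in each direction after quantile normalization (16.7%), of 21 neuron genes 4 higher and 2 lower (19% and 9.52%), and of 24 muscle genes 2 in each direction (8.33%). The genes named here lay below the array medians.

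Each of 4 large transcript classes had a median difference within 0.04 of that of transcript clusters at its signal level. The 7598 transcript clusters without a gene symbol had 428 called higher (5.63%) and 1513 lower (19.9%) as deposited, and 688 (9.06%) and 642 (8.45%) after quantile normalization. The 17275 that match a protein-coding gene had 678 higher (3.92%) and 4810 lower (27.8%), then 8.78% and 7.84%. The 815 olfactory receptor genes, which a liver is not known to use and which had a median level of 5.78, gave 61 higher (7.48%) and 123 lower (15.1%), then 81 (9.94%) and 60 (7.36%). The 554 miRNA genes gave 33 higher (5.96%) and 104 lower (18.8%), then 50 (9.03%) and 35 (6.32%), on an array whose probes read the precursor and its surroundings rather than the mature miRNA. Median differences after quantile normalization were 0.01, 0.00, 0.05 and -0.01 in these 4 classes. As deposited, set against transcript clusters in the same step of level, they were 0.01, 0.00, 0.04 and 0.00. Transcript clusters with equal values among the last 8 arrays were called somewhat more often than the others, 35.5% against 28.9% as deposited and 21.5% against 16.2% after quantile normalization.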

How the data were processed

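Total liver RNA of 16 steers was hybridized to Affymetrix bovine gene arrays. Per the methods, the authors made the deposited log2 values in Affymetrix Expression Console, by normalization on probe GC count, by RMA and by Signal Space Transformation. Transcriptome Analysis Console is also named in the submitters' processing notes. Neither their versions nor a build of the genome is stated in those sources. Of 26773 transcript clusters, 18790 had 1 gene symbol in the platform annotation, 385 several and 7598 none. The 18790 carried 18444 different gene symbols, and RefSeq (assembly ARS-UCD2.0) matched 18003 of these 18790 transcript clusters by gene ID. The number of arrays limits the precision.

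The values were fitted in limma 3.58.1 (R 4.3.3) with 1 mean per phenotype group and a term for the last 8 arrays, and p-values were adjusted by Benjamini-Hochberg over all transcript clusters. The procedure was checked on simulated data. Alternatives were median subtraction, quantile normalization, leaving out low transcript clusters, no groups in the model, an ordinary linear model, a variance trend with robust fitting, array weights, the mean of all transcript clusters of a symbol for gene lists, and leaving out each array.

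The division, gene lists and tests were chosen with earlier results of these data known. Named genes were taken, not all of them printed, from the 12 largest differences in each direction (1 symbol, adjusted p below 0.05 with 1 sign under all 3 scalings, no overlap), in each list the 2 members of smallest p and the 2 of highest level, defining cell markers and 3 reference genes. The highest transcript cluster stood for a symbol. Steers are separate animals with 1 array each.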

Additional observations from a re-analysis of the deposited data

Results flagged for a closer look

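For 84 named genes and 3 array measures, each side of 8 arrays was searched for an array whose gap to its nearest neighbour took up an unusual share of the whole range (Dixon's criterion). In 174 such sets of 8 arrays 18 were found, where chance gives about 1 in 20. The low gain-high intake steer 20133452 of the last 8 accounted for several. Its value was the lowest of the last 8 for NUPR1 (14.2, the others from 15.6), ALB (22.2, from 22.5), FGB (21.9, from 22.2) and the apolipoprotein H gene APOH (20.8, from 21.4). ALB was the highest value of the array on 5 of the last 8. Steer 20133452 was the highest for OPN1SW (6.71, the others up to 6.35), S100A8 (7.52, up to 6.78) and CD79A (7.45, up to 6.67).

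Other arrays of the last 8 stood apart in 1 or 2 genes. The high gain-high intake steer 20133390 was lowest for CPS1 (19.2, the others from 19.9) and for ABCG4 (5.93, from 6.43), and the high gain-low intake steer 20133697 for GHR (15.1, from 16.6). Several of the other ABCG4 values were 1 repeated value, 6.4829.

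In the first 8 arrays the low gain-high intake steer 20133062 was highest for CD3E (11.5, the others up to 9.44) and lowest for RPL31 (14.5, from 15.1) and RFC2 (8.42, from 8.67). The high gain-low intake steer 20133045 was highest for IFFO2 (6.12, up to 5.75) and lowest for KLF2 (6.59, from 6.99), and the high gain-low intake steer 20133110 was highest for FOXA3 (9.84, up to 8.41). The low gain-high intake steer 20133173 was lowest for EGFL7 (6.98, from 7.74) and the low gain-low intake steer 20133101 for OPN1SW (5.30, from 5.66). What lies behind these values was not tested.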

How the results depend on the processing

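The count of 7985 transcript clusters called between the first and the last 8 arrays (1207 higher, 6778 lower) was 5009 with median subtraction (2792 and 2217), 4526 after quantile normalization (2392 and 2134) and 4221 with low transcript clusters left out, where fewer were tested (316 and 3905). Quantile normalization without the low gain-high intake steer 20133452, chosen after seeing the data, gave 3959 (2071 and 1888). The cause of the change with scaling was not tested. Leaving out each array gave 5300 to 7764 calls (896 to 1188 higher, 4404 to 6576 lower), with the lowest counts without the low gain-low intake steer 20133403. The interaction of side and group, with 0 calls, had 1 in the ordinary linear model, 2 after quantile normalization without steer 20133452, and 0 to 4 with single arrays left out.

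Among 84 named genes, quantile normalization turned CFB to -0.29, APOH to -0.057, CPS1 to 0.22, SLC10A1 to 0.13, ACTB to 0.063, RPLP0 to 0.082, RPS24 to 0.00083, PECAM1 to 0.15 and SC5D to 0.34, and median subtraction turned PECAM1 to 0.026. Without steer 20133452 as well, quantile normalization gave -0.26 for CFB, -0.042 for APOH, 0.17 for CPS1, 0.077 for SLC10A1, 0.088 for ACTB, 0.070 for RPLP0, 0.19 for PECAM1 and 0.32 for SC5D. With single arrays left out, CFB ran from -0.029 to 0.15, CD3E from -0.59 to 0.019 and CD163 from -0.18 to 0.18, none called. CFB and APOH each stood at a limit on 5 of the first 8 arrays. Their values here are differences from limits, printed to show the change with processing, and are not measured sizes. Of 69 genes called with all arrays, 67 stayed called whichever array was left out. The exceptions were APOH, which lost its call in 4 of these fits, and SC5D, in 12. The 54 list medians moved by more than the spread between arrays in 43 lists with quantile normalization and 33 with median subtraction, and in 0 with array weights, the ordinary model, no groups, a variance trend or the mean over all transcript clusters of a symbol. With low transcript clusters left out 10 of 53 list medians moved, and with single arrays left out 4 of 864. No paired analysis was possible because the replicate numbers are animal numbers that no 2 arrays share.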
